A study of Saccharomyces cerevisiae with 72 samples.

Results

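Ume6 is a DNA-binding protein of budding yeast that recognises the URS1 element, whose core reads GGCGGC, before early meiotic genes and before genes of carbon, nitrogen and lipid use. During mitotic growth it holds these genes down through the co-repressors Sin3-Rpd3 and Isw2. When cells enter meiosis it binds Ime1, and the Ime1-Ume6 complex turns the early meiotic genes on. Between tandem genes, which read in the same direction, a bound site lies behind the end of the upstream gene and ahead of the start of the downstream gene, so that it has a single gene to the 3′ side, unlike a site between divergent genes.

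The regions described are the 501 Ume6 ChIP-seq peaks between tandem genes, of the 1562 peaks of replicate 1 that recurred in both other replicates and of the 2039 peaks in the replicate 1 list. A peak was taken when a replicate 2 and a replicate 3 summit lay within 100 bp of its own summit, when the summit lay in no annotated gene of the SK1 genome, and when the nearest genes on both sides were on 1 strand. Of the 580 replicate 1 peaks between tandem genes, 86.4% recurred in this way, against 85.7% of the 617 peaks between divergent genes and 61.9% of the 800 peaks inside genes. The members stand ahead of 454 downstream genes out of 5543 annotated genes. Of these genes, 413 had 1 member, 37 had 2, 2 had 3 and 2 had 4, and 52 members shared a called region with another summit. Just inside the distance limit, the summits of members at GAS1, COX19 and YHR214W/YAR066W were 96 bp from the farther replicate, with fold enrichments over input of 2.95, 4.18 and 4.22 at GAS1 in replicates 1 to 3. Just outside it, peaks at COX19, ATP20 and YPR015C were 105, 108 and 122 bp away.

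All strains were SK1 diploids, and those used for RNA-seq and TL-seq had IME1 and IME4 under the copper-responsive CUP1 promoter. The ChIP was made with 3 replicates of UB3301 (UME6-3V5, irt1:cup1, ime4::cup1), grown to saturation in the acetate medium BYTA, so binding was measured before IME1 was induced. RNA-seq was made in the T99N strain UB22629, whose ume6::UME6(T99N)-3V5 allele prevents contact with Ime1, and in the wild-type strain UB20649, which carries Ume6-3v5, with 3 libraries each after 0, 2, 3 and 4 h in sporulation medium. TL-seq, which reads the 5′ ends of capped transcripts, was made in UB14584 at 4 h and 2 h in replicates 1, 3 and 5, with RNA-seq of the same strain in replicates 4 and 5. Copper was added after the 2 h collection, and the study calls 4 h meiotic prophase and 2 h premeiotic. UB22629 carries irt1::pCUP1-3HA-IME1 as UB20649 does, but its IME4 construct is pCUP-IME4 and not ime4::pCUP1-3HA-IME4, and for UB14584 the labels list pCUP-IME1, pCUP-IME4 and the BY4741 allele of AMN1. Each genotype was 1 strain, and the labels do not say whether replicates were separate cultures, so p-values measure the spread between these libraries, which may be technical. In such bulk samples fewer cells in a state and less RNA per cell cannot be told apart.

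RNA-seq libraries of UB22629 and UB20649 held 5013206 to 20865934 reads, those of UB14584 3124472 to 4845107, and the TL-seq libraries 3195012 to 8243174. IME1 mRNA was between 5309 and 5823 CPM (counts relative to library size, scaled by TMM) at 4 h in T99N and between 2514 and 3944 at 4 h in wild type. At 2 h it was between 59.1 and 111 CPM in wild type and was 74.5 and 91.2 CPM in replicates 2 and 3 of T99N. Among the 2 h libraries of these strains, the one labelled T99N, replicate 1 stood apart, with 1870 CPM of IME1 and 1271 CPM of IME4. Results in T99N are therefore also given without replicate 1, which leaves out every library of that number in both strains. The meiotic entry marker HOP1 was between 95.1 and 98.4 CPM at 4 h in T99N and between 1598 and 1815 in wild type. IME2, another such marker, was between 381 and 477 CPM at 4 h in T99N and between 3878 and 4580 in wild type. Between the strains at 4 h, stage and the lost contact with Ime1 therefore cannot be told apart. UME6 mRNA itself was between 515 and 587 CPM in T99N and between 124 and 152 CPM in wild type at 0 h. At 4 h this order turned, with between 461 and 507 CPM in T99N and between 1342 and 2229 CPM in wild type. The part of UME6 level in the differences between strains was not tested. The summed level of 10 middle sporulation markers was between 281 and 287 CPM in T99N at 4 h, and in wild type 539, 166 and 207 CPM at 4 h and 649, 301 and 323 CPM at 2 h in replicates 1 to 3, with none of the 10 under 1 CPM in any library. Wild-type replicate 1 thus stood apart in these markers at both times, and its part in the results was not tested beyond leaving it out. UB14584, whose CPM were scaled apart, had 745 and 1081 CPM of IME1 at 2 h and 25882 and 14314 CPM at 4 h. Its IME4 was at 1141 and 1617 CPM at 2 h. HOP1 was at 17.5 and 23.9 CPM at 2 h and 3525 and 3511 CPM at 4 h in UB14584. The 10 middle markers summed to 943 and 805 CPM there at 4 h. The part of these levels in differences from UB20649 was not tested. Within the ChIP, replicate 1 stood apart: across the 501 members Spearman's rho of fold enrichment was 0.816 between replicates 1 and 2 and 0.791 between replicates 1 and 3, against 0.965 between replicates 2 and 3.

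The sequences below hold a URS1 core near the summit position of members that the results turn on. They were chosen among the strongest peaks with a URS1 core and the peaks ahead of meiotic genes, and do not cover all of either. Each is a window of 60 bases of the S288C genome (RefSeq, assembly R64) written 5′ to 3′ in the sense of the downstream gene, with every URS1 core, GGCGGC on this strand or GCCGCC on the other, in capitals. The ChIP was made in SK1, for which no sequence is shown, so core and summit were set against each other by their distance to the start codon of the same gene.
HSC82 (chrXIII:632061-632120, plus strand): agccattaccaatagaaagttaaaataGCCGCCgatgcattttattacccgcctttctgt
PYC1 (chrVII:384739-384798, plus strand): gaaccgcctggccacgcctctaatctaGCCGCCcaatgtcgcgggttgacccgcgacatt
ADY2 (chrIII:133419-133478, minus strand): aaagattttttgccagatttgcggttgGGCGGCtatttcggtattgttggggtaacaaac
UBI4 (chrXII:65500-65559, minus strand): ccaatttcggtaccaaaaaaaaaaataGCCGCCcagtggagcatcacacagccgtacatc
STR3 (chrVII:156431-156490, minus strand): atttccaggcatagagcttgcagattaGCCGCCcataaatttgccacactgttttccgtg
NUS1 (chrIV:114410-114469, plus strand): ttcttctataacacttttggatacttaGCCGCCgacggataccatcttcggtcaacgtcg
RIM4 (chrVIII:56281-56340, plus strand): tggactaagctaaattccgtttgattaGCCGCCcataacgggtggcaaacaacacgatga
INO1 (chrX:136159-136218, minus strand): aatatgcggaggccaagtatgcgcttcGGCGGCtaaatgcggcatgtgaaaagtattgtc
SRT1 (chrXIII:469588-469647, minus strand): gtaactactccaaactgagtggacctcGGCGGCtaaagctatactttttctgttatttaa
DMC1 (chrV:548256-548315, plus strand): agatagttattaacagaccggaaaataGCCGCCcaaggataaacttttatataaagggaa
SAE3 (chrVIII:262630-262689, minus strand): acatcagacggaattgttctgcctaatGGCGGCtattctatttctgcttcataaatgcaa
RNP1 (chrXII:47607-47666, minus strand): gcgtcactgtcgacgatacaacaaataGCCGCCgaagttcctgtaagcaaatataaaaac
In all 12 windows the core continues as GGCGGCT on one of the strands. Among members not shown, it does so at PEX9 and PDS5 and does not at ATG8 and CST9. At SRT1 the core stood 141 bases before the start codon and the summit 162 bases before it. At HSC82, the member with the highest mean fold enrichment, the core stood 264 bases and the summit 216 bases before the start codon. At RNP1, SAE3 and DMC1, the 3 genes with the largest rises described below, the core lay 173, 106 and 135 bases before the start codon.

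Fold enrichment spanned 2.26 to 176 as the mean of the 3 replicates, with quartiles of 4.33, 7.35 and 15.3, and 116 members reached 16 or more. It exceeded 4 in all 3 replicates in 330 of 501 members. The summits of replicates 2 and 3 lay a median of 10 and 11 bp from that of replicate 1. The largest of the 3 values was a median of 1.41 times the smallest, and at most 10.3 times. In 44 members replicate 1 was more than 2-fold lower than both other replicates, whereas neither replicate 2 nor replicate 3 was so in any member. These 44 were singled out after their values were seen. They include the members at ATG8, an autophagy gene, with 27.1, 110.3 and 113 in replicates 1 to 3, and at DMC1, the meiotic recombinase, with 10.7, 74.4 and 80.0. Of the 43 of their downstream genes that were tested, 23 were higher and 11 lower at 4 h than at 2 h in wild type (median log2 fold change 0.35), against 98 higher and 198 lower of the other 397 (median −0.40), which became 138 higher and 139 lower when scaled by library totals. Of the 44 genes, 3 are on the list of early meiotic genes and 4 on that of canonical Ume6 targets used below.

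**Figure D1:**
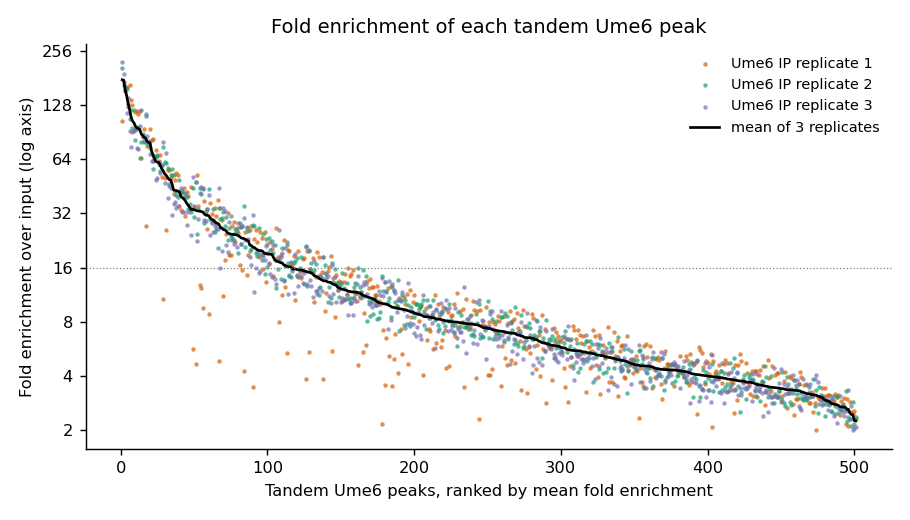
Fold enrichment over input (log axis) of each of the 501 tandem Ume6 peaks, ranked by the mean of 3 replicates, with 1 point per replicate, the mean as a line and a dotted line at 16. The 116 members at 16 or more form the steep left end, and most points far below the line belong to replicate 1.

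Most members lay upstream of the start site near the coding sequence, a position favoured by a rule that takes only summits outside genes. The summit was a median of 367 bp from the start codon of the downstream gene, within 500 bp of it in 340 members and over 1000 bp away in 40. The interval between the tandem genes had a median length of 803 bp. In 399 of 404 downstream genes with a TL-seq start site near the coding sequence the summit lay upstream of that start site, by a median of 236.5 bp, and in 5 it lay downstream. A tRNA gene, a Ty element or an LTR shared the interval in 42 members, with 2 summits inside a tRNA gene. MNase-seq at 4 h and 2 h, deposited as nucleosome positions with replicates pooled, showed less nucleosome signal beside the summits. In the bins of 50 bp within 100 bp of the summit it was 139 to 143 at 4 h and 160.4 to 169 at 2 h per member, against 403 at 4 h and 463 at 2 h at 150 to 200 bp before it and 384 at 4 h and 419 at 2 h at 150 to 200 bp after it. The signal at 150 to 200 bp was itself above that of the next bins outward. Those centred 225 bp before and after the summit had 222 and 257 at 4 h and 245 and 278 at 2 h. These values were still above those within 100 bp. The number of called nucleosomes was closer only in the 50 bp on either side of the summit, with 0.317 per member against 0.371 at 150 to 200 bp. At 50 to 100 bp it was 0.184 before the summit and 0.168 after it.

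The share of downstream genes with a URS1 core followed fold enrichment. Of 294 genes whose summit lay 100 to 500 bp from the start codon, 73 (24.8%) held GGCGGC on either strand within 100 bases of the summit position, against 4.40% of 5999 protein-coding genes in a window of the same length centred 291 bases before the start codon. The share was 12.5% of genes with a mean fold enrichment under 4, 10.1% at 4 to 8, 22.4% at 8 to 16 and 56.9% (41 of 72) at 16 or more. The longer form GGCGGCT, which overlaps the core, was in 45.8% (33 of 72) of the top class and in 1.75% of all genes. For comparison, the Reb1 motif TTACCCG was in 7.82% of the 294 genes and 3.78% of all, and the MCB motif ACGCGT in 3.40% and 2.27%. Over the whole 600 bases before the start codon, the core was in 22.2% of 436 downstream genes, in 9.54% of 388 genes that lie only upstream of a member, and in 11.4% of all. A match is a description of these letters in S288C and not a mapped site.

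In wild type at 4 h, downstream genes as a whole fell more often than they rose, and the genes behind the strongest peaks did not follow. Among 440 downstream genes tested with edgeR's quasi-likelihood test, 121 (27.5%) were higher and 209 (47.5%) were lower at 4 h than at 2 h, against 32.3% higher and 30.8% lower of all 5486 features tested. The median log2 fold change was −0.34 over downstream genes and 0.02 over all features. By class of fold enrichment, 46 of 114 genes rose and 36 fell at 16 or more (median 0.13), 31 rose and 44 fell of 94 at 8 to 16 (median −0.34), 33 rose and 78 fell of 151 at 4 to 8 (median −0.38), and 11 rose and 51 fell of 81 under 4 (median −0.76). Spearman's rho between mean fold enrichment and the change was 0.27 over 440 genes, which share libraries and are no replicates, and was 0.15, 0.29 and 0.29 with the enrichment of replicates 1, 2 and 3. Scaled by library totals in place of TMM, the same genes gave 162 higher and 148 lower, so that 52.3% of calls were higher, against 36.7% with TMM. That scaling moved the median of all features to 0.41, and the median of the downstream genes stayed 0.35 below it. Without replicate 1, which stood apart in wild type, 106 were higher and 219 lower with TMM. With library totals the class of 8 to 16 gave 36 higher and 31 lower, so that its balance turned.

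**Figure D2:**
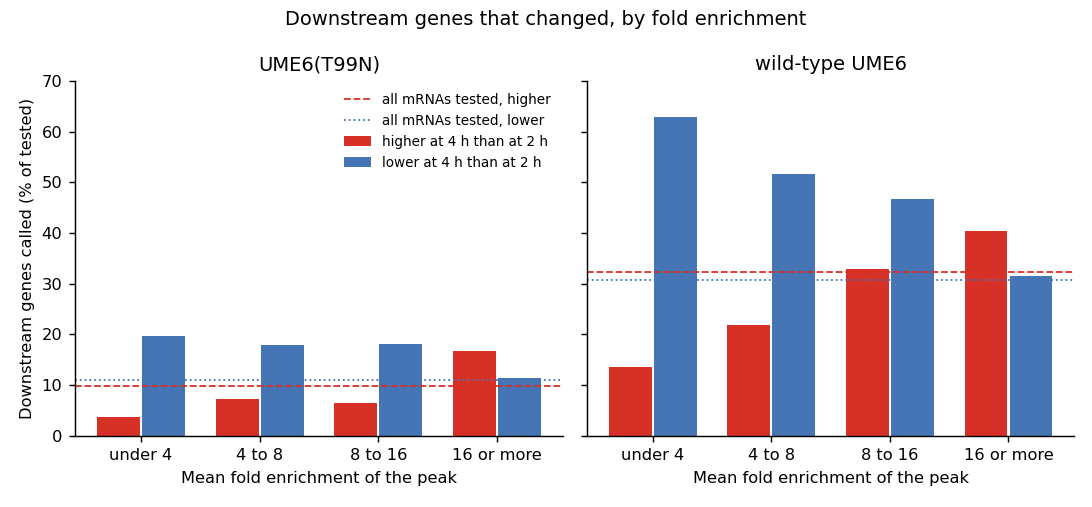
Share of tested downstream genes (percent) higher (red) or lower (blue) at 4 h than at 2 h in T99N (left) and wild type (right), by mean fold enrichment of the peak, with dashed and dotted lines for the share of all features tested. In wild type 51 of 81 genes fell under 4 and 36 of 114 at 16 or more, while 11 and 46 rose.

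Genes with a URS1 core near the summit differed from genes without it. Of the 73 with a core within 100 bases, 43 rose and 15 fell in wild type (median 0.60), against 48 that rose and 110 that fell of the 221 without it (median −0.41). Over all features 32.3% rose and 30.8% fell. Within the class of 16 or more, 27 rose and 10 fell of 41 with a core (median 0.92), and 8 rose and 8 fell of 31 without it (median 0.11). Leaving out each replicate in turn gave 38 or 39 rises and 14 to 16 falls with a core, and 37 to 40 rises and 86 to 120 falls without it. With library totals the counts were 50 rises and 12 falls with a core and 71 rises and 73 falls without it.

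**Figure D3:**
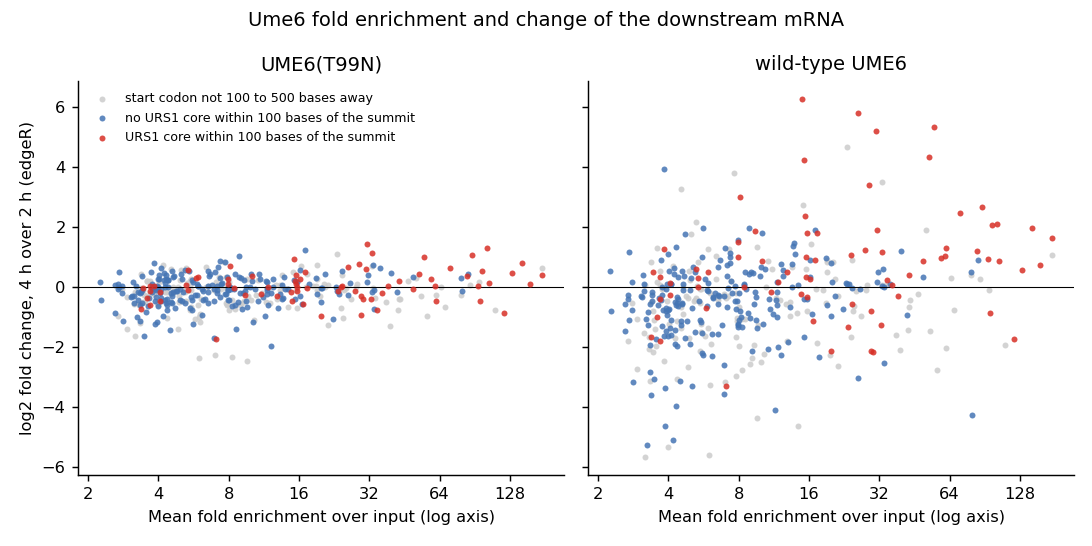
Log2 fold change at 4 h over 2 h of the mRNA downstream of each peak against its mean fold enrichment (log axis), in T99N (left) and wild type (right), 1 point per gene, coloured by a URS1 core within 100 bases of the summit. Grey points are genes whose summit is not 100 to 500 bp from the start codon. In wild type the red points reach highest, up to 6.25 at RNP1, which is at −0.47 in T99N.

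Of the downstream genes of the 15 members with the highest mean fold enrichment, 10 were higher at 4 h than at 2 h in wild type. A further 3 were lower and 2 did not pass the test, against 32.3% higher and 30.8% lower of all features. Where groups are said not to overlap, here and below, the share of all features without overlap is not given. HSC82, which encodes an Hsp90 chaperone, had fold enrichments of 104, 205 and 220.2. Its mRNA was at 2209, 1921 and 2006 CPM at 4 h, against 646, 602 and 735 CPM at 2 h. The groups do not overlap, and the log2 fold change was 1.61 ± 0.15 (SE, adjusted p = 6.55e-07, edgeR). HSC82 is nearly identical to HSP82, so its count is uncertain. AIP5, whose protein binds actin, was bound at 171, 165 and 191, with the summit 1757 bp before its start codon and thus beyond the 600 bases searched for motifs. Its mRNA was at 213, 173 and 316 CPM at 4 h, against 112, 109 and 109 CPM at 2 h (log2 1.07 ± 0.19, adjusted p = 1.95e-04), without overlap.

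Among the genes of acetate and pyruvate use, ADY2, which encodes an acetate transporter, was bound at 161, 157 and 115. Its mRNA was at 16588, 14785 and 11209 CPM at 4 h, against 2705, 4466 and 3671 CPM at 2 h (log2 1.96 ± 0.26, adjusted p = 2.21e-05). PYC1, which encodes pyruvate carboxylase, was bound at 152, 160.2 and 155. It had 2967, 2793 and 2394 CPM at 4 h, against 1438, 1702 and 1678 CPM at 2 h (log2 0.74 ± 0.18, adjusted p = 0.00247). ACH1, which encodes an enzyme of acetyl-CoA metabolism, was bound at 118, 64.5 and 98.1. It had 3489, 3253 and 2764 CPM at 4 h, against 1305, 2013 and 1649 CPM at 2 h (log2 0.92 ± 0.25, adjusted p = 0.0059). In each of these 3 genes every 4 h library lay above every 2 h library. UBI4, the polyubiquitin gene, was bound at 124, 129 and 140.0 and had 3241, 2821 and 2055 CPM at 4 h, against 1589, 1845 and 1947 CPM at 2 h (log2 0.58 ± 0.19, adjusted p = 0.0188). This call was lost without replicate 1 (log2 0.33) and without replicate 2 (log2 0.56).

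Genes of other functions in the same group also rose. NUS1, which encodes a subunit of cis-prenyltransferase for dolichol synthesis, was bound at 65.1, 79.6 and 119. It had 624, 606 and 449 CPM at 4 h, against 82.0, 83.1 and 94.7 CPM at 2 h (log2 2.67 ± 0.15, adjusted p = 6.70e-09), the largest change of the 15. PDS5, a cohesin cofactor gene, was bound at 91.5, 120.5 and 93.3. It had 635, 574 and 756 CPM at 4 h, against 176, 129.6 and 153 CPM at 2 h (log2 2.08 ± 0.25, adjusted p = 8.80e-06). IRR1, which encodes a cohesin subunit, was bound at 32.9, 31.8 and 29.2 and stands outside the 15. It had 646, 560.2 and 618 CPM at 4 h, against 177, 152 and 156 CPM at 2 h (log2 1.89 ± 0.22, adjusted p = 6.60e-06), so both cohesin genes rose without overlap. TVS1 rose as well (log2 2.07 ± 0.29), as did PEX9, which encodes an import receptor of peroxisomes (log2 0.86 ± 0.18).

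The 3 that fell were STR3, YOR342C and ILV2. STR3, which encodes cystathionine beta-lyase of methionine synthesis, was bound at 166, 106 and 91.6. It had 26.0, 30.0 and 25.2 CPM at 4 h, against 88.5, 83.6 and 92.3 CPM at 2 h (log2 −1.72 ± 0.13, adjusted p = 1.18e-07). A core is in its window shown above, and its mRNA fell. YOR342C, bound at 136, 120.1 and 74.6, had 15.8, 17.0 and 18.7 CPM at 4 h, against 62.9, 66.7 and 62.5 CPM at 2 h (log2 −1.92 ± 0.15, adjusted p = 1.23e-07). ILV2, which encodes acetolactate synthase of branched-chain amino acid synthesis, was bound at 118, 93.5 and 74.2 and had 365, 347 and 276 CPM at 4 h, against 456, 725 and 615 CPM at 2 h (log2 −0.88 ± 0.17, adjusted p = 4.63e-04). The groups of these 3 genes do not overlap. KNS1, a protein kinase gene (log2 −0.12 ± 0.14), and GIC2, a Cdc42 effector gene (log2 0.26 ± 0.22), did not pass the test, although GIC2 did with library totals (log2 0.67). Chosen after their values were seen, 3 genes behind strong peaks outside the 15 fell by more: the stress gene DDR2, bound at 75.5, 78.7 and 86.2 (log2 −4.27 ± 0.44), and the ergosterol synthesis genes ERG5, bound at 51.0, 59.2 and 59.6 (log2 −2.77 ± 0.18), and ERG11, bound at 42.3, 42.5 and 32.7 (log2 −2.09 ± 0.20).

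All 6 downstream genes on a list of early meiotic genes rose in wild type at 4 h, against 32.3% of all features. Their median log2 fold change was 3.94, against 0.02 over all features. DMC1 had 1423, 1392 and 1586 CPM at 4 h, against 45.0, 33.6 and 29.9 CPM at 2 h (log2 5.32 ± 0.22, adjusted p = 8.33e-10). SAE3, whose protein assists Dmc1, was bound at 11.1, 32.5 and 34.3 and had 123, 137 and 106 CPM at 4 h, against 3.41, 1.58 and 1.56 CPM at 2 h (log2 5.79 ± 0.23, adjusted p = 7.91e-10). HED1, a meiotic recombination gene, was bound at 15.5, 27.3 and 27.1 and had 261, 254 and 273 CPM at 4 h, against 13.2, 9.11 and 8.93 CPM at 2 h (log2 4.64 ± 0.22, adjusted p = 1.72e-09). In all 3 genes the 4 h libraries lay above the 2 h libraries by more than 10-fold. GMC1 (log2 3.24 ± 0.14), MSH5 (log2 2.71 ± 0.16), a crossover gene, and CST9 (log2 1.90 ± 0.14), a gene of synapsis initiation, rose less. GMC1 did so behind a peak of only 3.45, 5.12 and 4.97.

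A list of canonical Ume6 targets gave 14 higher and 3 lower of 18 downstream genes (median 1.62), against 32.3% higher and 30.8% lower of all features. Since the study drew on this list with these samples, its direction is no independent evidence. RIM4, which encodes an RNA-binding protein of meiotic entry, was bound at 81.9, 68.7 and 62.7 and had 11642, 10976 and 11376 CPM at 4 h, against 1732, 2508 and 1846 CPM at 2 h (log2 2.46 ± 0.22, adjusted p = 5.92e-07). SRT1, a cis-prenyltransferase gene, was bound at 25.8, 61 and 69.3 and had 1116, 1183 and 1405 CPM at 4 h, against 66.5, 55.8 and 61.9 CPM at 2 h (log2 4.31 ± 0.23, adjusted p = 5.87e-09). INO1 encodes inositol phosphate synthase of the phospholipid pathway. It was bound at 66.6, 67.5 and 50.5 and had 2821, 2468 and 2059 CPM at 4 h, against 786, 1031 and 1149 CPM at 2 h (log2 1.29 ± 0.22, adjusted p = 2.02e-04). The groups of these 3 genes do not overlap. MPC54, a spore pole body gene (log2 3.39 ± 0.18), YOL131W (log2 3.47 ± 0.33), ATG8 (log2 1.20 ± 0.21) and YOR338W (log2 0.95 ± 0.17) also rose. The 3 targets that fell were GPH1 (log2 −2.50 ± 0.31), SSA3 (log2 −1.42 ± 0.30) and ECL1 (log2 −2.27 ± 0.20), behind mean enrichments of 9.98, 4.25 and 19.6. SUL1, at −0.09, did not pass the test.

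RNP1, an RNA-binding protein gene on the list of canonical targets, had the largest rise of the downstream genes whose groups do not overlap. It was bound at 15.1, 17.0 and 12.7 and had 280.4, 249 and 845 CPM at 4 h, against 7.67, 4.92 and 5.24 CPM at 2 h (log2 6.25 ± 0.47, adjusted p = 1.12e-07). Replicate 3 stood highest at 4 h, and all 3 libraries were far above those at 2 h. YBR184W, bound at 8.81, 43.8 and 40.4, had 245, 276 and 294 CPM at 4 h, against 13.1, 4.83 and 4.24 CPM at 2 h (log2 5.19 ± 0.32, adjusted p = 2.12e-08). CIT3, which encodes a mitochondrial citrate synthase isoform, was bound at 11.3, 20.46 and 19.3 and had 1831, 1804 and 1586 CPM at 4 h, against 391, 458 and 532 CPM at 2 h (log2 1.90 ± 0.18, adjusted p = 1.09e-06).

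**Figure D4:**
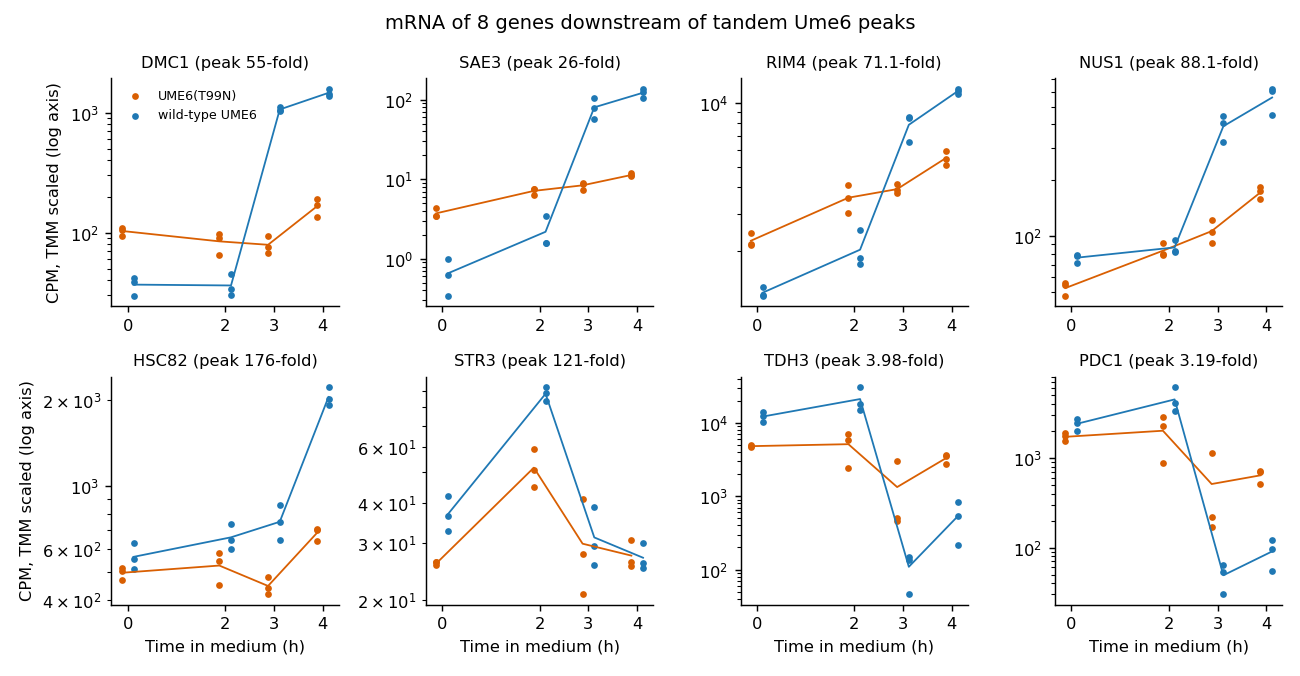
CPM (TMM scaled, log axis) of 8 genes downstream of tandem Ume6 peaks at 0, 2, 3 and 4 h in T99N and wild type, 1 point per library and a line through the means. In wild type DMC1, SAE3, RIM4 and NUS1 are above their 2 h libraries at 4 h, while STR3, TDH3 and PDC1 are below them.

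At 3 h DMC1 and PDS5 stood above 2 h in wild type, and NDT80 and HSC82 overlapped 2 h. DMC1 had 38.7, 29.7 and 41.9 CPM at 0 h, 45.0, 33.6 and 29.9 CPM at 2 h, 1112, 1049 and 1036 CPM at 3 h and 1423, 1392 and 1586 CPM at 4 h. PDS5 had 76.3, 59.8 and 71.5 CPM at 0 h, 176, 129.6 and 153 CPM at 2 h, 1821, 1950.2 and 3090.2 CPM at 3 h and 635, 574 and 756 CPM at 4 h, so that its 3 h libraries stood highest. NDT80 had 44.1, 38.6 and 43.9 CPM at 3 h, against 43.7, 35.1 and 30.0 CPM at 2 h. HSC82 had 645, 746 and 857 CPM at 3 h, which overlaps 2 h, and stood higher only at 4 h. No comparison with 3 h was tested. The 3 h libraries entered only the fit for the comparison at 0 h, which took all 24 libraries of both strains.

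In T99N the changes between 4 h and 2 h were fewer and smaller. Of the 440 downstream genes, 39 were higher and 73 lower at 4 h than at 2 h in T99N, against 9.77% higher and 11.1% lower of all features, with a median of −0.10. Without replicate 1 in both strains and at both times, the counts were 56 higher and 110 lower. The library that stood apart is among those taken out, and it was not left out alone. They fell to 1 higher and 15 lower without replicate 2, and to 4 higher and 22 lower without replicate 3, and the cause was not tested. Of the 121 genes that rose in wild type, 32 rose in T99N, 1 fell and 88 did not pass the test. Of the 209 that fell in wild type, 65 fell in T99N and 144 did not pass the test. By class, 19 genes rose and 13 fell at a fold enrichment of 16 or more, against 3 that rose and 16 that fell under 4. With library totals 22 were higher and 60 lower.

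The strain by time interaction tests that difference itself, as the change in T99N less the change in wild type. It was positive in 144 and negative in 82 of 440 downstream genes, against 18.2% and 17.5% of all features. In 78 of the 121 genes that rose in wild type and in 141 of the 209 that fell, the change was smaller in T99N by this test, and in 0 of either was it larger in the same direction. These 3 comparisons share libraries, and choosing genes by their call in wild type favours a smaller change in T99N. The same counts over all features that rose or fell in wild type are not given. Nothing particular to downstream genes is thus shown by them. With library totals 75 were positive and 117 negative (39.1% positive of those called, against 63.7% with TMM), since that scaling moved the median of all features to −0.43 and that of the downstream genes to −0.17. Genes with a core near the summit gave 12 positive and 33 negative of 73, and those without it 73 positive and 26 negative of 221. With library totals these were 6 positive and 42 negative with a core, and 39 positive and 47 negative without it, so that the balance without a core turned. Without replicates 1, 2 and 3 in turn, the calls over all 440 genes were 149 positive and 76 negative, 85 and 48, and 92 and 49.

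Among the early meiotic genes the difference was largest at SAE3 and DMC1. In T99N DMC1 had 135, 168 and 192 CPM at 4 h, against 65.5, 98.2 and 89.7 CPM at 2 h (log2 1.00 ± 0.19, adjusted p = 0.00369), and the interaction was −4.33 ± 0.27. SAE3 had 11.8, 10.8 and 11.2 CPM at 4 h in T99N, against 7.54, 6.37 and 7.47 CPM at 2 h (log2 0.67 ± 0.22), with an interaction of −5.12 ± 0.32. RNP1 had 29.5, 27.3 and 24.6 CPM at 4 h in T99N, against 29.3, 41.7 and 43.4 CPM at 2 h (log2 −0.47 ± 0.39, not past the test), with an interaction of −6.72 ± 0.59. All 6 early meiotic genes had a negative interaction, as had 13 of 18 canonical targets. HSC82 had 707, 704 and 642 CPM at 4 h in T99N, against 449, 548 and 584 CPM at 2 h, which did not pass the test (log2 0.40 ± 0.14, adjusted p = 0.0645), with an interaction of −1.21 ± 0.20. The cohesin genes rose in T99N too, PDS5 by 1.30 ± 0.25 and IRR1 by 1.42 ± 0.22 on the log2 scale. Their interactions (−0.79 ± 0.35 and −0.47 ± 0.31) did not pass the test, although that of PDS5 did with library totals (−1.21). Of the 22 named genes called in T99N, 4 passed without each replicate in turn (NUS1, CWP1, FET4 and FLO9). Of the 40 with a called interaction, 29 did, DMC1, SAE3, RNP1 and HSC82 among them.

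At 0 h downstream genes were about as often higher as lower in T99N. Of 440 genes, 87 were higher and 78 lower in T99N than in wild type, against 18.4% higher and 18.6% lower of all 5488 features. At a fold enrichment of 16 or more 30 were higher and 16 lower of 114, and under 4 there were 7 higher and 19 lower of 81. With a core near the summit 26 were higher and 12 lower of 73, and without it 30 were higher and 47 lower of 221. Without replicate 2 the total dropped to 21 higher and 3 lower, with 7 higher and 0 lower with a core and 8 higher and 3 lower without it, so that the balance without a core turned, and without replicate 1 it was 63 higher and 44 lower. Meiotic genes were among the higher ones. SAE3 had 4.28, 3.44 and 3.46 CPM in T99N, against 1.00, 0.343 and 0.626 CPM in wild type (log2 2.55 ± 0.38, adjusted p = 8.01e-05). SRT1 had 57.9, 69.6 and 57.3 CPM in T99N, against 17.6, 12.3 and 15.7 CPM in wild type (log2 2.02 ± 0.24, adjusted p = 8.53e-06). DMC1 had 94.5, 106 and 109 CPM in T99N, against 38.7, 29.7 and 41.9 CPM in wild type (log2 1.49 ± 0.18, adjusted p = 8.53e-06). In none of these 3 genes do the strains overlap. STF2, bound at 9.22, 6.94 and 4.68, was lower, with 69.2, 83.4 and 87.5 CPM in T99N, against 294, 286 and 311 CPM in wild type (log2 −1.89 ± 0.28, adjusted p = 9.86e-05). Of 25 named genes called at 0 h, 6 passed without each replicate in turn: DMC1, SRT1, SAE3, HED1, STF2 and GMC1. UME6 mRNA was higher in T99N at 0 h, as given above, and its part in these differences was not tested.

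The 3 largest falls in wild type, at PDC1, FLO9 and TDH3, were behind weak peaks. On a list of highly expressed housekeeping genes, 1 of 11 downstream genes rose and 9 fell (median −3.96), against 32.3% and 30.8% of all features. PDC1, which encodes pyruvate decarboxylase of fermentation, was bound at only 2.83, 3.48 and 3.26. It had 121, 95.7 and 55.0 CPM at 4 h, against 3325, 6149.9 and 4075 CPM at 2 h (log2 −5.66 ± 0.46, adjusted p = 2.45e-07). TDH3, a glyceraldehyde-3-phosphate dehydrogenase gene of glycolysis bound at 2.08, 4.64 and 5.22, had 838, 539 and 214 CPM at 4 h, against 14907, 30494 and 18097 CPM at 2 h (log2 −5.34 ± 0.56, adjusted p = 2.09e-06). Neither gene overlaps between the times. TDH1, a gene related to TDH3 and bound at 3.58, 3.02 and 3.09, fell too (log2 −5.26 ± 0.45). How far such related genes share reads was not tested, so their counts are uncertain. GPM1 (log2 −5.09 ± 0.44), FBA1 (log2 −4.62 ± 0.44) and TPI1 (log2 −3.96 ± 0.32), further enzymes of glycolysis, fell behind mean enrichments of 4.18, 3.86 and 4.33. In T99N the log2 fold change was −1.63 ± 0.39 at PDC1 and −0.61 ± 0.46 at TDH3, which did not pass the test, with interactions of 4.03 ± 0.56 and 4.73 ± 0.69. The median level at 0 h in wild type was 72.3 TPM (a level relative to transcript length and library size) under a fold enrichment of 4, 63.1 at 4 to 8, 61.5 at 8 to 16 and 56.1 at 16 or more, against 33.7 over all genes. The part of expression level in these peaks was not tested. The other genes named for the size of their fall include FLO9, a flocculin gene 4824 bp from its peak (log2 −5.59 ± 0.40), CWP1, a cell wall mannoprotein gene (log2 −4.36 ± 0.31), and FET4, an iron transporter gene (log2 −2.77 ± 0.28).

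Other lists gave smaller counts, to be read beside 32.3% higher and 30.8% lower of all features in wild type. The share that rose was 33.3% of the carbon, nitrogen and lipid list and 29.0% of genes only upstream of a member, near that of all features. The shares that fell were 22.2% and 35.7%. Of transcription factor genes 20% rose and 40% fell. Of 9 genes of carbon, nitrogen and lipid use, 3 rose (ADY2, INO1 and FOX2) and 2 fell (SFC1 and PUT1) in wild type, against 5 that rose and 1 that fell with library totals. Of 10 transcription factor genes, 2 rose (RGT1 and YAP6) and 4 fell, NRG2, PHD1 and MIG2 among them, against 2 that rose and 2 that fell with library totals. PHD1, a regulator of pseudohyphal growth, fell behind a peak of 71.7, 65.5 and 48.8 (log2 −2.03 ± 0.15), and NRG2, a repressor in glucose, behind one of 2.42, 3.79 and 3.80 (log2 −3.13 ± 0.13). Genes that lie only upstream of a member gave 113 higher and 139 lower of 389 (median −0.09), a balance that turned with library totals (169 higher and 80 lower). Genes with no peak beside or inside them gave 1118 higher and 1011 lower of 3600 (median 0.04).

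Some upstream neighbours changed more than the downstream gene. MND1, a meiotic recombination gene that ends upstream of the STR3 peak, had 331, 255 and 481 CPM at 4 h, against 10.9, 9.94 and 9.37 CPM at 2 h (log2 5.12 ± 0.23, adjusted p = 1.55e-09), while STR3 fell. Its interaction was −4.18 ± 0.29. TYE7, which encodes an activator of glycolytic genes and ends upstream of the YOR342C peak, had 15.5, 15.1 and 17.5 CPM at 4 h, against 249.6, 271 and 295 CPM at 2 h (log2 −4.11 ± 0.24, adjusted p = 1.55e-08), in the direction of YOR342C. PUS2 ahead of PYC1 (log2 1.18 ± 0.20) and COX19 ahead of KNS1 (log2 1.28 ± 0.21) rose, and SPG4 ahead of ILV2 (log2 −1.42 ± 0.19) and FUS3 ahead of ACH1 (log2 −1.08 ± 0.20) fell. IGD1, SNF3, VPS20 and TAH1, ahead of AIP5, NUS1, PDS5 and TVS1, rose by 0.46 to 0.63 on the log2 scale.

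At the start sites in UB14584, downstream genes were also lower more often than higher. Of 404 downstream genes with a TL-seq cluster near the coding sequence, 95 were higher and 154 lower at 4 h than at 2 h (limma, adjusted p under 0.1), against 24.6% higher and 23.8% lower of all 5114 clusters, with a median of −0.25. At 16 or more 40 rose and 27 fell of 108, and under 4 there were 7 rises and 39 falls of 69. RNA-seq of that strain gave 100 higher and 178 lower of 438, against 26.6% and 26.8% of all features. Of the 404 genes, both methods called 73 higher and 135 lower, with 4 higher in TL-seq and lower in RNA-seq and 2 the other way. The same counts over all features are not given, so these show nothing particular to downstream genes. DMC1 had 13199, 9552 and 14639 normalized reads at 4 h, against 97.7, 10.9 and 41.5 at 2 h in replicates 1, 3 and 5 (log2 8.38 ± 0.62, adjusted p = 8.45e-06). HSC82 had 12362, 14293 and 7196 normalized reads at 4 h, against 2938, 1772 and 2829.7 at 2 h (log2 2.14 ± 0.32, adjusted p = 6.35e-04). PEX9 had 782, 922 and 436 normalized reads at 4 h, against 152, 38.3 and 39.1 at 2 h (log2 3.45 ± 0.51, adjusted p = 6.42e-04). In these 3 genes the times do not overlap, and fold changes are on the log2 scale of the value plus 1, which understates changes of low clusters.

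A few genes are given with start site and mRNA in UB14584 beside the mRNA in UB20649. NDT80, the regulator of middle meiosis, was bound at 35.4, 33.9 and 29.7. It had 802, 697 and 146.5 normalized reads at its start site at 4 h and was at 0 in every library at 2 h. Its mRNA rose in UB14584 too (log2 2.36 ± 0.14) and did not pass the test in UB20649 (log2 0.02 ± 0.19). INO1 had 7138, 4365 and 8967 normalized reads at 4 h, against 6591, 6150.4 and 5989 at 2 h, so the times overlap (log2 0.07 ± 0.28). Its mRNA did not pass the test in UB14584 either (log2 0.70 ± 0.30, adjusted p = 0.0941), whereas it rose in UB20649. YOX1, a cell cycle repressor gene bound at 12.1, 13.1 and 12.03, had 0, 0 and 1.68 normalized reads at 4 h, against 239, 94.8 and 222 at 2 h (log2 −6.96 ± 0.56, adjusted p = 1.48e-05). Its mRNA did not pass the test in UB14584 (log2 −0.34 ± 0.17) and rose slightly in UB20649 (log2 0.37 ± 0.12, adjusted p = 0.0166), a call lost without replicate 1 (log2 0.32), 2 (log2 0.45) or 3 (log2 0.30). KNS1 fell at its start site (log2 −1.40 ± 0.30) and did not pass the test in the mRNA of UB14584 (log2 −0.43 ± 0.16) or UB20649. These differences between start site and mRNA, and between strains, were not tested. Stage markers also differed between UB14584 and UB20649, as given above.

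Of the loci where the study lists a 5′ extended transcript, 9 lie downstream of a member, and because the list was made from these TL-seq samples its direction is no independent evidence. All 9 distal clusters rose at 4 h, and of the proximal clusters 7 fell, 1 rose and 1 did not pass the test. RPO41, which encodes the mitochondrial RNA polymerase and was bound at 10.6, 17.5 and 19.1, had 578, 409.9 and 438 normalized reads at 4 h, against 1.68, 0 and 1.19 at 2 h at the distal cluster (log2 8.03 ± 0.42, adjusted p = 9.10e-07). At its proximal cluster it had 14.8, 30.3 and 15.2 normalized reads at 4 h, against 154, 129 and 62.9 at 2 h (log2 −2.44 ± 0.42). Its mRNA, which counts reads of both transcripts, rose in UB20649 (log2 1.80 ± 0.13). BUL2, a ubiquitin ligase adaptor gene bound at 8.98, 11.2 and 13.3, had 302, 496 and 288 normalized reads at 4 h, against 14.3, 13.7 and 8.30 at 2 h at the distal cluster (log2 4.78 ± 0.32). Its proximal cluster had 1.74, 0.704 and 0 normalized reads at 4 h, against 29.5, 30.1 and 45.1 at 2 h (log2 −4.40 ± 0.60). The mRNA rise of BUL2 in UB20649 (log2 0.58 ± 0.15) was lost without replicate 2 (log2 0.45).

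HMG1, which encodes HMG-CoA reductase of sterol synthesis, was bound at 11.4, 7.77 and 8.68. Its distal cluster rose (log2 4.12 ± 0.31), its proximal cluster fell (log2 −5.10 ± 0.52) and its mRNA fell in UB20649 (log2 −1.94 ± 0.14). SVS1 (distal 6.26 ± 0.35, proximal −7.51 ± 1.22) and PBI2, a protease inhibitor gene (distal 4.29 ± 0.51, proximal −2.03 ± 0.21), moved likewise on the log2 scale. At SRM1, which encodes the exchange factor of the yeast Ran protein and was bound at 62.2, 60 and 61.6, the distal cluster had 341, 471 and 342 normalized reads at 4 h, against 16.01, 10.03 and 9.49 at 2 h (log2 4.93 ± 0.29). Its proximal cluster had 412, 531 and 539 normalized reads at 4 h, against 268, 211 and 389 at 2 h (log2 0.81 ± 0.27), a rise lost without replicate 1 (log2 0.90) or replicate 3 (log2 0.54). At YDR222W the proximal cluster did not pass the test (log2 0.07 ± 0.32), and in the separate table of replicates 4 and 5 it fell (log2 −1.05, limma adjusted p = 0.0502). The summit lay downstream of the distal start site in 6 of the 9, by 498 bp at SRM1, 297.5 at RPO41, 201.5 at PBI2, 163.5 at HMG1, 106 at YDR222W and 41.5 at BUL2. It lay 135.5 bp upstream of it at SVS1, and over 2000 bp upstream at CMR3 and SAM3.

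**Figure D5:**
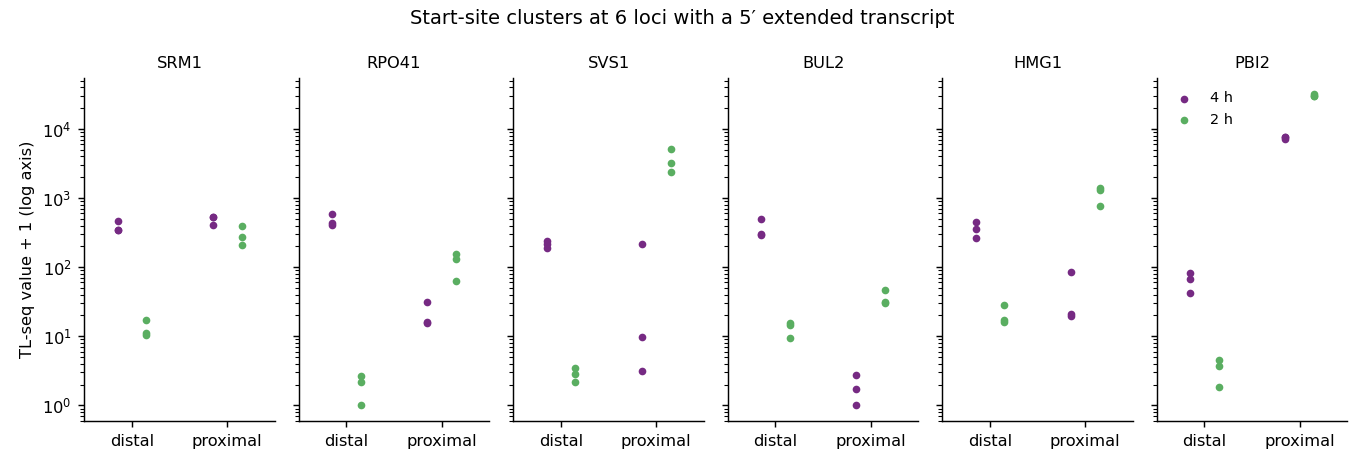
TL-seq value plus 1 (normalized reads, log axis) of the distal and the proximal start cluster at 6 loci with a 5′ extended transcript, at 4 h and 2 h, 1 point per library of replicates 1, 3 and 5. The distal clusters are higher at 4 h at all 6 loci, and the proximal clusters are lower at 4 h except at SRM1.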

How the data were processed

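For the Ume6 ChIP the authors aligned reads to the SK1 genome, reduced each library to an equal number and called peaks over input with macs2 at q under 0.001, 1 list per replicate, and the deposited fold enrichment is the ratio of IP over input at the summit. For RNA-seq the authors ran salmon and deposited expected counts and TPM values for each feature of the SK1 annotation. For TL-seq the authors counted reads per start-site cluster and deposited this signal divided by 1 size factor per library. For MNase-seq the authors deposited the signal at each nucleosome summit after pooling the libraries of a time with DANPOS. Expected counts, 96.8% of them whole, were rounded and tested with edgeR 4.0.16 (quasi-likelihood, TMM, default filter on low counts, R 4.3.3), with DESeq2 1.42.0 as an alternative. TL-seq values, all within 0.1 of whole reads once the size factor is undone, were tested as log2 of the value plus 1 with limma 3.58.1 and a variance trend. P-values were adjusted by Benjamini-Hochberg over all features, with calls at 0.05 in RNA-seq and 0.1 in TL-seq. CPM were scaled by TMM. Sequences and motifs were searched in RefSeq S288C (R64) with Python 3.11.15, since no SK1 sequence was used here.

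The members, gene lists and tests were chosen with earlier results of these data known. Named genes are those downstream of the 15 members with the highest mean fold enrichment, the 3 largest rises and falls past the threshold per comparison among genes whose groups do not overlap, up to 10 genes each of the lists of canonical targets, early meiotic genes and 5′ extended loci, and the upstream neighbours of the first 15 where they passed the test. A gene with several members took the strongest. Of the downstream genes, 17 had an ambiguous name, 14 were not tested in RNA-seq and 50 had no TL-seq cluster. Within TL-seq, deviations of same-numbered libraries correlated (0.159, 0.168 and 0.382), so a replicate block was run as an alternative. In simulated counts for wild type at 4 h over 2 h, edgeR recovered 77% of 2-fold and 100% of 4-fold changes among 5452 features, with 4.84% false calls. For TL-seq at 4 h over 2 h, limma recovered 8% and 78% among 5114, with 2.27% false calls. Peak lists hold no library totals. Not used here were 12 columns of normalized per-sample values, and the authors' own fold changes and p-values, including those of histone marks.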

Additional observations from a re-analysis of the deposited data

Results flagged for a closer look

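The change between 4 h and 2 h differed between T99N and wild type at 40 of the named downstream genes, by the interaction test of edgeR over all features (adjusted p under 0.05). Over all features 18.2% were positive and 17.5% negative. Genes were named in part for large changes in this and the other comparisons, which favours a high count, so the count shows nothing particular to them. The values below are the change in T99N less the change in wild type on the log2 scale.

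Among early meiotic genes and canonical targets that rose in wild type, the values were −6.72 at RNP1, −5.12 at SAE3, −4.33 at DMC1, −3.88 at SRT1, −3.55 at HED1, −2.78 at YOL131W, −2.66 at GMC1, −2.62 at MPC54, −2.22 at MSH5, −1.82 at RIM4, −1.75 at INO1, −1.60 at CST9, −1.16 at ADY2, −0.83 at ATG8 and −0.70 at YOR338W. Among the other genes with a negative value, they were −4.59 at YBR184W, −1.81 at RPO41, −1.61 at NUS1, −1.54 at TVS1, −1.21 at HSC82, −1.01 at SRM1, −0.78 at BUL2, −0.72 at PEX9, −0.70 at YDR222W and −0.69 at CIT3. YDR222W differs from the rest here, since its mRNA fell in T99N (log2 −0.92) and did not pass the test in wild type (log2 −0.22).

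All genes with a positive value fell in wild type. For genes of glycolysis and fermentation the values were 4.03 at PDC1, 4.12 at GPM1, 4.15 at FBA1, 4.27 at TDH1 and 4.73 at TDH3. For the others they were 0.62 at SAM3, 0.84 at STR3, 1.14 at SVS1, 1.15 at YOR342C, 1.38 at PBI2, 1.48 at HMG1, 1.90 at CWP1, 1.97 at ECL1, 2.52 at STF2 and 3.23 at FLO9. 11 of the 40 calls were lost when 1 of the replicates was left out: TVS1, ADY2, ATG8, BUL2, PEX9, YOR338W, YDR222W, CIT3, SAM3, STR3 and SVS1. With library totals the calls at STR3 (0.45) and SAM3 (0.21) were lost as well.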

How the results depend on the processing

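The count of members was 501 and became 330 with fold enrichment over 4 in all 3 replicates, and 519 to 649 when 1 ChIP replicate was left out. With members over 4 only, downstream calls became 219 (from 330) in wild type and 74 (from 112) in T99N. At an adjusted p under 0.01 they became 64 in T99N, 149 (from 226) for the interaction and 78 (from 165) at 0 h. Leaving out 1 replicate gave 273 to 325 calls in wild type, 16 to 166 in T99N, 133 to 225 for the interaction and 24 to 139 at 0 h, with the lowest counts in T99N, the interaction and 0 h all without replicate 2, and the cause was not tested. In TL-seq the range was 199 to 270. The rho between fold enrichment and the change in wild type was 0.15 with replicate 1 of the ChIP alone (0.27 with the mean), and 0.25 to 0.30 when 1 ChIP replicate was left out. At YDR222W the proximal start cluster was at −1.05 on the log2 scale in replicates 4 and 5 (limma adjusted p = 0.0502), against 0.07 in replicates 1, 3 and 5.

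Among 2701 alternatives for single named genes, 2510 kept direction and side of the threshold, 148 fell below it, 42 passed it and 1 reversed. DESeq2 gave 339, 138, 250 and 182 calls in wild type, T99N, the interaction and at 0 h. In TL-seq, edgeR on recovered reads gave 252 (249 with limma), and replicates 4 and 5 alone gave 168. A replicate block gave 326, 106, 221 and 175 calls in the 4 RNA-seq comparisons. It gave 277 (from 278) in UB14584 and 282 in TL-seq, and moved no count by over 1.5 times. In TL-seq same-numbered libraries correlated in their deviations, but the labels state no pairing. Correlations of same-numbered RNA-seq libraries did not all exceed 0.1 (−0.08, 0.20 and −0.05 in wild type, and 0.23, 0.04 and 0.18 in T99N). Scaling by library totals and the restriction to members within 1000 bp were chosen after seeing the data. Leaving out a replicate was not run in UB14584, which has 2 libraries per time. Peak lists give no depth, so precision of fold enrichment rests on the 3 replicates.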
